A study of Homo sapiens with 9 samples.

Results

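The 6 genes described here, VEGFA, INHBE, GDF15, STC2, ADM2 and FGF21, encode secreted growth factors and hormones that are known targets of the stress transcription factor ATF4. They were taken by gene symbol from a table of 22011 probe sets, and each had 1 probe set, so 6 of 22011 are described. Of these, 5 probe sets carried 1 symbol. The probe set of GDF15 was annotated with GDF15 and with the microRNA gene MIR3189, which the RefSeq gene table places inside the span of GDF15, so the RNAs of these genes cannot be told apart there and the name GDF15 below stands for that probe set.

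The arrays measured total RNA of HEK293, a human embryonic kidney cell line. The cells had been transfected 48 h earlier with a Stealth small interfering RNA (siRNA). It was a control siRNA (siCTR), one against DBC1 (siDBC1) or one against ZNF326, also named ZIRD (siZNF326). The gene of the DBC1 protein is CCAR2, and both targets are studied as subunits of the DBIRD complex, which acts between RNA polymerase II and messenger ribonucleoprotein particles. Each group held 3 arrays from independent experiments, 9 in all, and all values are log2 expression values as deposited. No genotype other than that of the cell line was named, and every group, the controls included, received an siRNA. How many siRNA sequences were used per target is not stated in the labels.

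The integrated stress response slows general translation when initiation factor eIF2 is phosphorylated and at the same time raises translation of ATF4, which then drives genes of amino acid supply, redox balance and protein folding. Part of its output leaves the cell. GDF15 and FGF21 act as hormones in whole animals, GDF15 through a receptor in the hindbrain and FGF21 through FGF receptors with the co-receptor KLB. VEGFA, the main growth factor of blood vessels, is known as a target of hypoxia-inducible factors and GDF15 as a target of p53, so that these genes can follow more than the stress pathway.

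The targeted transcripts and the cell type were checked first. CCAR2 read 7.72 ± 0.096 in siCTR (SD, n = 3), 6.56 ± 0.078 in siDBC1 and 7.99 ± 0.030 in siZNF326. ZNF326 read 5.55 ± 0.27, 6.40 ± 0.85 and 5.83 ± 0.28 in the same order, so in siZNF326 the targeted transcript was not below the control level, and siZNF326 names arrays by their label here, not by a measured depletion. Array medians ran from 5.58 in siDBC1 replicate 2 to 5.90 in siZNF326 replicate 1, and no pair of arrays was identical over all probe sets. Of the 7 HEK293 genes VIM, KRT8, KRT18 and NEFL lay above the 89.8th percentile of every array, while INA lay at the 57.7th to 82.6th, NEFM at the 45.7th to 87.5th and PAX2 at the 51.8th to 59.6th. Among the 13 measured markers of fibroblast, endothelial, liver and blood cells, the highest were COL1A1, at the 63.0th to 73.7th percentile, and the liver gene APOA1, at the 48.4th to 57.8th, which overlaps the range of PAX2. The lowest was the blood marker PTPRC, at most at the 5.43rd. The liver genes TTR and ALB reached the 37.7th and the 12.8th. The mean of these 13 ran from 4.07 to 4.12 in siCTR, 4.07 to 4.15 in siDBC1 and 4.07 to 4.13 in siZNF326. That of the 7 HEK293 genes ran from 7.72 to 7.95, from 7.83 to 8.15 and from 8.20 to 8.45. It was highest in the arrays labelled siZNF326, where the neurofilament genes NEFM and INA stood 1.72 and 0.95 above siCTR (adjusted p = 0.158 and 0.22 in limma), and the part of this in the results below was not tested. In such bulk RNA, fewer cells with a transcript and less of it in each cell cannot be told apart.

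RefSeq promoter sequences on build GRCh38.p14 were at hand for 4 of the 6 genes (STC2, GDF15, FGF21 and ADM2), and the 250 bases before the gene start are shown for 3 of them. They stand for the 3 patterns seen in the arrays: STC2 was lower with either siRNA, GDF15 was higher in the arrays labelled siZNF326, and FGF21 stayed within a narrow range. Capitals mark a match to a searched motif, of which FGF21 holds the only match among the 4. STC2 lies at chr5:173328415-173328664 on the minus strand, GDF15 at chr19:18385908-18386157 and FGF21 at chr19:48755274-48755523, both on the plus strand, and each sequence is written 5′ to 3′ in the direction of the gene.
STC2: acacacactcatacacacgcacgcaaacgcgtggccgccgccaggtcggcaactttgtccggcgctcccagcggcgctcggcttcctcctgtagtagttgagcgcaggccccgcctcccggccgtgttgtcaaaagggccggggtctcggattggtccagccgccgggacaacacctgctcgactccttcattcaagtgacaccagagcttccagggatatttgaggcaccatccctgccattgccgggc
GDF15: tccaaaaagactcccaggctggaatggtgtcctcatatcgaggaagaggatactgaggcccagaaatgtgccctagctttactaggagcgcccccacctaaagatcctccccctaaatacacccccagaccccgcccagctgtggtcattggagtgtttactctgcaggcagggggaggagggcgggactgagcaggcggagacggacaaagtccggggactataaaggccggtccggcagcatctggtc
FGF21: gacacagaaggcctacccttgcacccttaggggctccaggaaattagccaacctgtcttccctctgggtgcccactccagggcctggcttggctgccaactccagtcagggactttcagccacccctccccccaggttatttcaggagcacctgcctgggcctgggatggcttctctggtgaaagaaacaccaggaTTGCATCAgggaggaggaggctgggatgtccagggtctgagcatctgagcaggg

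Both strands of these windows were searched for TGATGNAA, the core of the element that ATF4 binds together with C/EBP factors, for the cyclic AMP response element TGACGTCA and for ACGTG, a core of hypoxia response elements. TGATGNAA occurred in FGF21 alone, as TGATGCAA on the strand opposite to the gene, from 54 to 47 bases before the start. Windows with this motif made up 3.14% of 35116 promoters of the same length. The other motifs matched none of the 4 windows and were found in 1.65% (TGACGTCA) and 18.5% (ACGTG) of all promoters. Other forms of the hypoxia core were not searched, so these windows are not shown to lack one. A match describes letters and not a bound site.

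VEGFA fell in siDBC1. It read 7.49, 7.25 and 7.63 on the siCTR arrays, 6.28, 6.05 and 6.42 in siDBC1 and 6.46, 6.44 and 6.58 in siZNF326. Every array of either siRNA lay below every control array, and the groups were apart by 0.84 and 0.68. From 7.46 ± 0.19 (SD, n = 3) the mean went to 6.25 ± 0.19 in siDBC1, a change of −1.21 (SE 0.13, 95% interval −1.51 to −0.91, adjusted p = 0.0494 in limma) or 2.31-fold. In siZNF326 the mean was 6.49 ± 0.075 and the difference −0.97 (SE 0.13, −1.27 to −0.67), or 1.96-fold, which missed the threshold of 0.05 (adjusted p = 0.0526). The call in siDBC1 was lost when any 1 of the 9 arrays was left out (adjusted p from 0.0911 to 0.331), while the change itself stayed between −1.31 and −1.11.

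**Figure D1:**
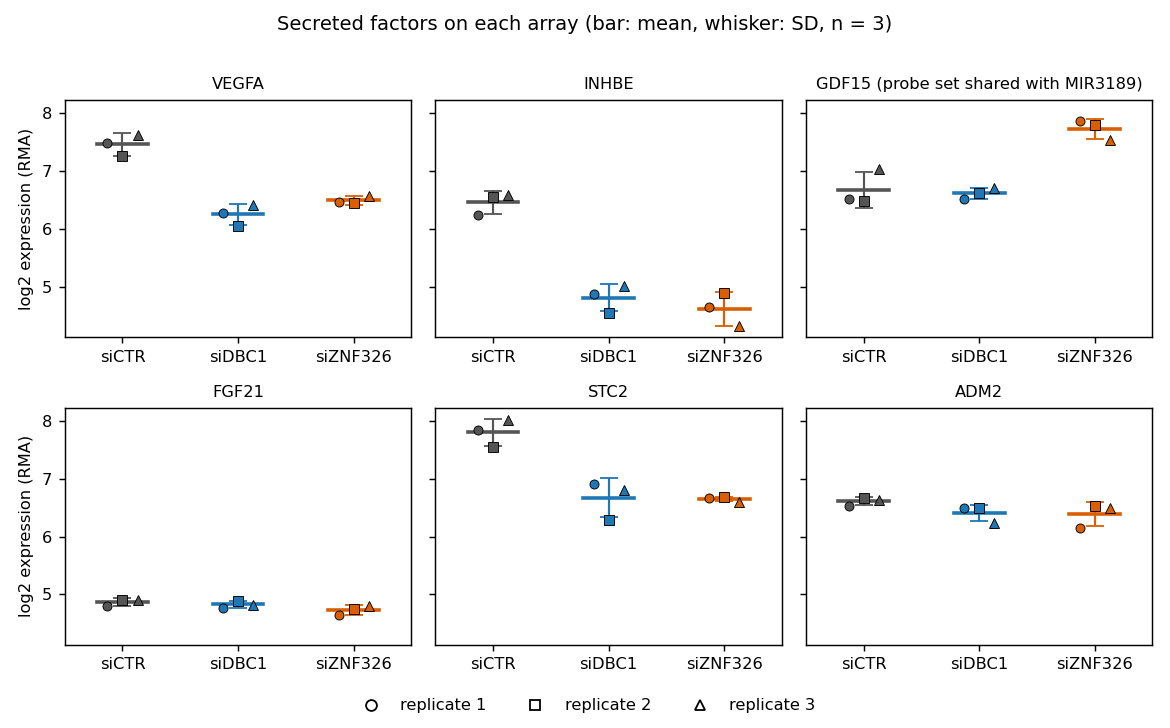
Log2 expression (vertical axis) of the 6 secreted factors on each of the 9 arrays, by siRNA group (horizontal axis); symbols are replicates, horizontal bars are means and whiskers are SD (n = 3). VEGFA, INHBE and STC2 lie below siCTR on all arrays of either siRNA, GDF15 lies above it on the 3 siZNF326 arrays, from 7.54 to 7.86, and FGF21 stays between 4.64 and 4.91.

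INHBE, which encodes the beta E subunit of activins in the TGF-beta superfamily, had the largest differences of the 6 genes from siCTR with either siRNA and fell in the arrays labelled siZNF326. The control arrays read 6.24, 6.55 and 6.59. In siDBC1 INHBE read 4.87, 4.55 and 5.02, and in siZNF326 4.65, 4.90 and 4.32. The lowest control array stood 1.22 above the highest siDBC1 array and 1.33 above the highest siZNF326 array. The mean of 6.46 ± 0.19 (SD, n = 3) went to 4.62 ± 0.29 in siZNF326, a change of −1.84 (SE 0.19, 95% interval −2.26 to −1.41, adjusted p = 0.0216 in limma) or 3.57-fold. In siDBC1 it was 4.81 ± 0.24, with a difference of −1.64 (SE 0.19, −2.07 to −1.21) or 3.13-fold, ranked 9 of 22011 by p, and missed the threshold (adjusted p = 0.0607). The call in siZNF326 was kept without siDBC1 replicate 2 or siDBC1 replicate 3 and lost without any of the other 7 arrays (adjusted p from 0.0797 to 0.153), with changes from −1.98 to −1.68. INHBE lay at the 61.8th to 68.1st percentile of the control arrays and at the 27.1st to 36.1st of the others, and no detection values were used here, so how far these lower values lie above background was not measured.

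STC2, a stanniocalcin that binds and inhibits the protease PAPPA, was lower in both groups by about as much as VEGFA, and no test passed. Its control arrays read 7.84, 7.54 and 8.02. The siDBC1 arrays read 6.92, 6.29 and 6.80 and the siZNF326 arrays 6.66, 6.68 and 6.60. The siZNF326 arrays lay within 0.075 of each other, while the siDBC1 arrays spread over 0.63, and neither group overlapped the controls. STC2 differed from siCTR by −1.13 in siDBC1 (SE 0.18, 95% interval −1.55 to −0.71, adjusted p = 0.172 in limma) or 2.19-fold and by −1.15 in siZNF326 (SE 0.18, −1.57 to −0.73, adjusted p = 0.0798) or 2.23-fold. VEGFA, INHBE and STC2 shared siDBC1 replicate 2 as the lowest of their siDBC1 arrays, the array with the lowest median of all. Without that array their differences from siCTR in siDBC1 were −1.11, −1.51 and −0.94.

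GDF15, a distant TGF-beta family hormone that signals through GFRAL, stood above the controls in the arrays labelled siZNF326, where the other 5 factors had means below them. It read 6.52, 6.48 and 7.04 on the control arrays, 6.51, 6.63 and 6.71 in siDBC1 and 7.86, 7.79 and 7.54 in siZNF326. The siDBC1 arrays lay inside the range of the controls. All 3 siZNF326 arrays lay above it, 0.50 from the highest control array and 0.83 from the highest siDBC1 array. The difference of siZNF326 from siCTR was 1.05 (SE 0.16, 95% interval 0.67 to 1.43) or 2.07-fold and missed the threshold (adjusted p = 0.0789 in limma). Without siCTR replicate 3, the highest control array, the difference of siDBC1 from siCTR turned from −0.065 to 0.11 (adjusted p = 0.998 with all arrays).

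ADM2, also called intermedin, a peptide of the calcitonin family, differed by less than VEGFA, INHBE or STC2 from the controls. It read 6.53, 6.67 and 6.63 in siCTR, 6.49, 6.49 and 6.24 in siDBC1 and 6.15, 6.54 and 6.49 in siZNF326. The value 6.49 on siDBC1 replicates 1 and 2 and on siZNF326 replicate 3 was the same number in all 3 places. Of all probe sets, 41.4% had the same number on at least 2 arrays, and the share with 3 was not counted. ADM2 differed from siCTR by −0.21 in siDBC1 (95% interval −0.50 to 0.084, adjusted p = 0.928 in limma) and by −0.22 in siZNF326 (−0.51 to 0.069, adjusted p = 0.658). The siDBC1 arrays all lay below the controls by at least 0.045, and the siZNF326 arrays overlapped them.

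FGF21, an endocrine fibroblast growth factor, had the narrowest range of the 6 genes, 0.27 over the 9 arrays, and 10.2% of all probe sets had a smaller one. Its control arrays read 4.80, 4.91 and 4.91. The siDBC1 arrays read 4.77, 4.88 and 4.83 and the siZNF326 arrays 4.64, 4.75 and 4.81. Both groups overlapped the controls. The differences were −0.042 in siDBC1 (95% interval −0.22 to 0.14, adjusted p = 0.995 in limma) and −0.14 in siZNF326 (−0.32 to 0.040, adjusted p = 0.655). FGF21 lay between the 31.0th and the 36.3rd percentile of the arrays, where the absence of a call says little because no detection values were used here. It is the gene whose promoter window, shown above, holds the ATF4 and C/EBP motif.

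**Figure D2:**
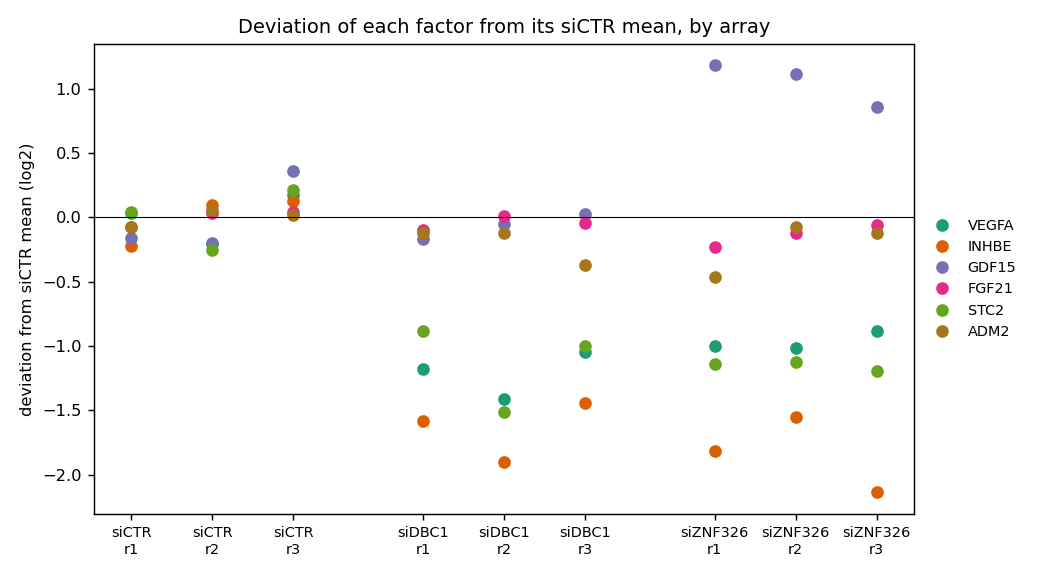
Deviation of each factor from its own siCTR mean (vertical axis, log2) on each array (horizontal axis, grouped by siRNA, r1 to r3 are replicates). INHBE lies lowest on each of the 6 siRNA arrays, from −2.14 to −1.44, VEGFA and STC2 run close together, and GDF15 reads 1.18, 1.11 and 0.86 in siZNF326.

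Counted together, limma called 1 of the 6 genes in siDBC1 against siCTR, VEGFA (lower), where 0.0363% of all probe sets were called in either direction and 0.0273% lower. In siZNF326 against siCTR it called 1, INHBE (lower), where 0.15% of all probe sets were called and 0.0591% lower. The groups did not overlap for 4 of 6 in siDBC1, all lower, where 8.84% of all probe sets did not overlap and 3.66% were lower. In siZNF326 they did not overlap for 4 of 6, 3 lower and 1 higher, where the shares of all probe sets were 18.2% in all, 5.27% lower and 12.9% higher. At an unadjusted p under 0.05 stood 3 of 6 in siDBC1 and 4 of 6 in siZNF326, where 6.18% and 8.65% of all probe sets did. The median difference of the 6 was −0.67 in siDBC1 and −0.59 in siZNF326, and that of all probe sets 0.014 and 0.032. The genes were chosen with earlier results of these data known, and both comparisons share the control arrays, so these counts are a description. The number called depended on the scaling of the arrays: with quantile normalization, and likewise with each array centred on its median, 3 were called in siDBC1 (VEGFA, INHBE and STC2, all lower) and 4 in siZNF326 (these 3 lower and GDF15 higher). Calls over all 22011 probe sets rose too. In siDBC1 they went from 8 to 69 with quantile normalization and 46 with centred arrays. In siZNF326 they went from 33 to 196 and 119.

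**Figure D3:**
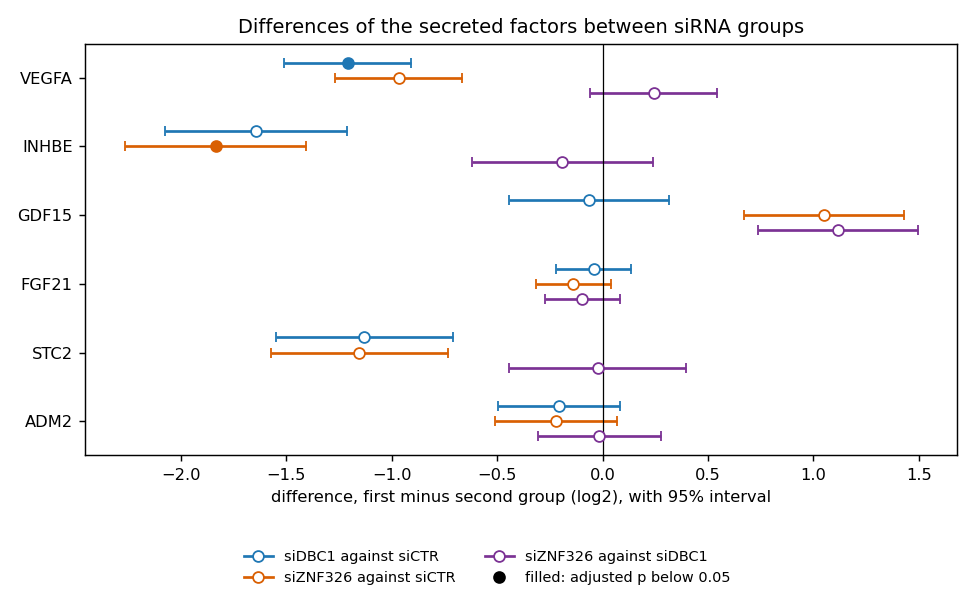
Difference between groups for each factor (horizontal axis, log2, first minus second group) with 95% intervals from limma; colours are the 3 comparisons and filled points have an adjusted p below 0.05. VEGFA in siDBC1 and INHBE in siZNF326 are the filled points, at −1.21 and −1.84, and the intervals of siZNF326 against siDBC1 cover 0 for 5 of the 6 genes, all but GDF15.

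Set against each other directly, the siRNA groups showed 0 calls among the 6 genes in limma, where 0.00909% of all probe sets were called, and 1 gene, GDF15, had an unadjusted p under 0.05, where the share of all probe sets was 7.31%. The groups did not overlap for 2 of the 6, GDF15 and VEGFA, both higher in siZNF326, where 9.45% of all probe sets did not overlap and 5.21% were higher. GDF15 was higher in siZNF326 by 1.12 (SE 0.16, 95% interval 0.74 to 1.50, adjusted p = 0.197) or 2.17-fold, in all 3 arrays. Its level was highest in siZNF326, and siDBC1 and siCTR overlapped and have no order between them. VEGFA was 0.24 higher in siZNF326 than in siDBC1 (interval −0.058 to 0.54, adjusted p = 0.735), and these groups were apart by 0.024. For INHBE the difference was −0.19 (−0.62 to 0.24), for STC2 −0.024 (−0.44 to 0.40), for ADM2 −0.015 (−0.30 to 0.28) and for FGF21 −0.096 (−0.27 to 0.082), each with overlapping groups. The intervals leave room for differences of up to 0.62 for INHBE and 0.44 for STC2, so the siRNA groups are not shown to be alike.

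The other ATF4 targets, whose products stay in the cell or its membranes, gave the background for these values. Of 40 listed genes 37 were measured, and in siDBC1 all 37 lay below the control mean (median −0.70), as did 36 in siZNF326 (median −0.92). Limma called 2 lower in siDBC1, CHAC1 at −1.46 and ASNS at −1.04, where 0.0273% of all probe sets were called lower. It called 9 lower in siZNF326, where that share was 0.0591%, with CHAC1 at −2.19, SLC7A5 at −1.50, ASNS at −1.24 and SLC6A9 at −0.92 among them. At an unadjusted p under 0.05 the counts were 31 and 32, all lower, where 6.18% and 8.65% of all probe sets passed in either direction. The last shares hold for each list below. INHBE, VEGFA and STC2 lay beyond the median of that list in both comparisons, and ADM2 and FGF21 on the side toward 0. Factors known to act on the 6 genes were a mixed list, with 0 of 23 measured genes called in siDBC1 (8 at an unadjusted p under 0.05, 7 of them lower) and 2 in siZNF326, where 0.15% of all probe sets were called (10 at an unadjusted p under 0.05, 7 of them lower). Those were DDIT3, the stress factor CHOP, at −1.15 (adjusted p = 0.0391) and EGR1, an immediate early factor, at 0.59 (adjusted p = 0.0376). The stress factors DDIT3, CEBPG and TRIB3 are among the genes that stand in both lists. In the list of factors acting on the 6 genes they were among the 4 with the smallest p in either comparison.

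**Figure D4:**
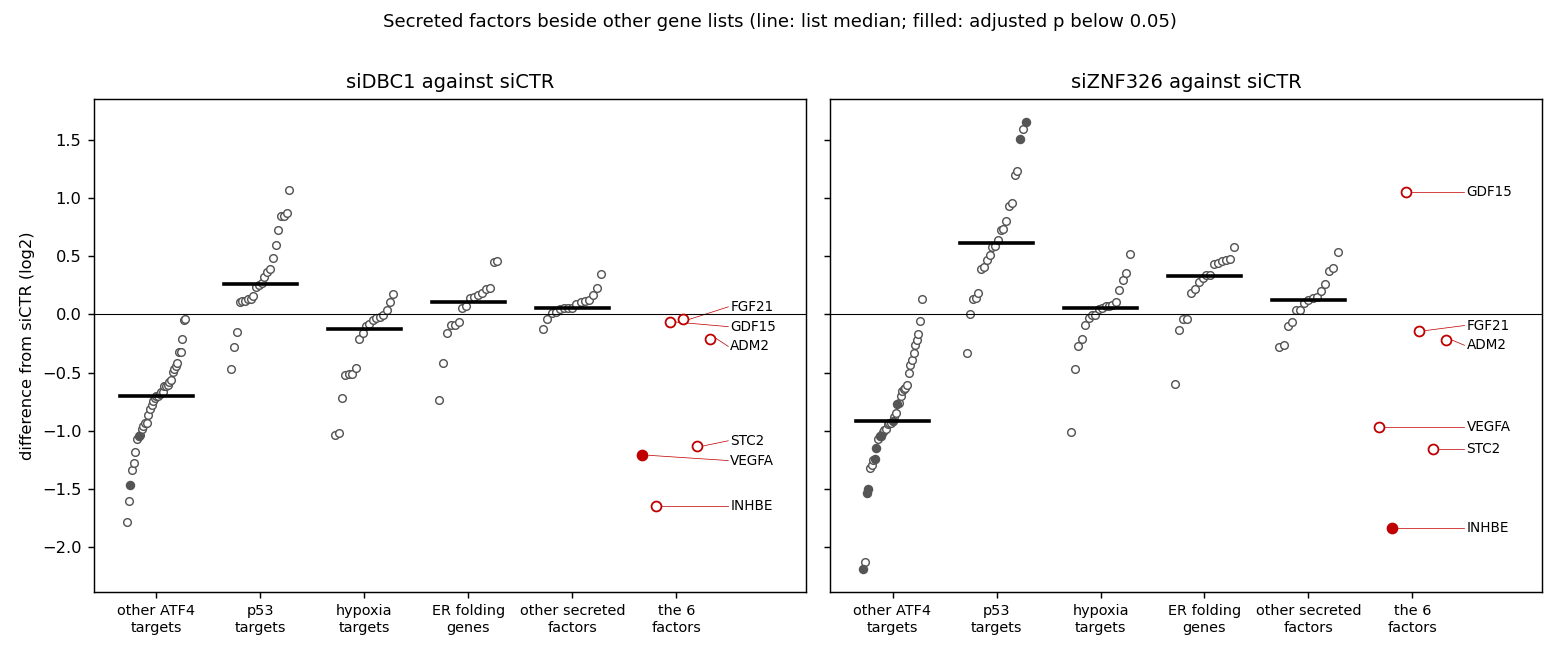
Difference from siCTR (vertical axis, log2) of the genes of 5 lists (grey) and of the 6 secreted factors (red) in siDBC1 and siZNF326; lines are list medians and filled points have an adjusted p below 0.05. INHBE, VEGFA and STC2 lie below the median of the other ATF4 targets, at −0.70 and −0.92, in both panels, and GDF15 lies at 1.05 in siZNF326, above the median of the p53 targets at 0.61.

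The p53 targets, a program to which GDF15 also belongs, were higher by their median in both groups. It was 0.26 in siDBC1 with 0 of 22 measured genes called (8 at an unadjusted p under 0.05, 7 of them higher), and 0.61 in siZNF326 with 2 called, both higher, where 0.15% of all probe sets were called (17 at an unadjusted p under 0.05, 16 of them higher). These were TP53I3 at 1.66 (adjusted p = 0.00523) and CDKN1A, the cyclin-dependent kinase inhibitor p21, at 1.51 (adjusted p = 0.0216). In siDBC1 they stood at 0.87 and 0.85, beside −0.065 for GDF15.

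Hypoxia targets, a program to which VEGFA also belongs, had medians of −0.13 in siDBC1 and 0.053 in siZNF326, and 0 of 18 measured genes were called in either comparison (4 and 2 at an unadjusted p under 0.05, all lower). DDIT4, which stands in the ATF4 list too, had the smallest p in both, at −1.04 and −1.01. NDRG1 stood at −0.52 in siDBC1 (adjusted p = 0.446), and LDHA at −0.21 in siZNF326 (adjusted p = 0.53). ADM, the close relative of ADM2 and a hypoxia target, differed by 0.17 and 0.049. Folding genes of the endoplasmic reticulum, through which secreted proteins pass, had medians of 0.10 and 0.33 with 0 of 16 called in either comparison (4 and 6 at an unadjusted p under 0.05). Of these, 1 was lower in each comparison, and 3 and 5 were higher. CALR, the chaperone calreticulin, stood at 0.45 and 0.58, and HERPUD1 at −0.74 in siDBC1. The lowest value of this list in siZNF326 was −0.60. Secreted factors not counted as ATF4 targets had medians of 0.058 and 0.13, with 0 of 15 called in either (2 and 2 at an unadjusted p under 0.05), and the growth factor MDK at 0.54 in siZNF326 had the smallest p there (adjusted p = 0.192).

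Relatives and receptors of the 6 proteins were not called by limma in siDBC1 or siZNF326. In the VEGF family and its receptors 9 of 9 genes were measured, with medians of −0.019 and 0.19 and 0 and 1 genes at an unadjusted p under 0.05, the latter PGF at 0.32. Among 19 relatives and receptors of INHBE and GDF15 the medians were −0.071 and 0.012, with 2 and 4 at an unadjusted p under 0.05. TGFB1 had the smallest p in both, at 0.58 (adjusted p = 0.425) and 0.78 (adjusted p = 0.109), and GDF11 stood at 0.65 in siZNF326. INHBC, a close relative of INHBE, differed by −0.14 and −0.15, without overlap with the controls. Its means of 3.27 in siCTR, 3.13 in siDBC1 and 3.12 in siZNF326 lay below the lower quartile of every array. How far they lie above background was not measured. The 8 FGF hormones and receptors ran from −0.28 to 0.17 in siZNF326 and from −0.13 to 0.15 in siDBC1, with 0 at an unadjusted p under 0.05 in either. Among 6 measured relatives and partners of STC2, 1 and 2 had an unadjusted p under 0.05. Its paralog STC1 was lower too, by 0.97 in siDBC1 (adjusted p = 0.127) and 0.62 in siZNF326 (adjusted p = 0.222), without overlap with the controls. IGFBP5, a binding protein of insulin-like growth factors and a substrate of the related protease PAPPA2, stood at 0.78 in siZNF326 (adjusted p = 0.119). Of the 9 relatives and receptors of ADM2, 0 and 1 had an unadjusted p under 0.05, the latter CALCB at −0.28.

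Genes with the most similar course over the 9 arrays were found by the root mean square (RMS) difference of values centred on each gene's own mean, among 14427 probe sets with 1 symbol, for the 4 factors whose range was above 1. VEGFA and STC2 resembled each other, with an RMS difference of 0.16 against 0.42 between VEGFA and INHBE and 0.84 between VEGFA and GDF15. DDIT3 was closest to VEGFA, at 0.15, followed by DDR2, a collagen receptor, and LRRC8D, a subunit of volume-regulated anion channels, both at 0.16. The same DDR2 and LRRC8D were closest to STC2, at 0.13 and 0.14, followed by ASNS at 0.14. For INHBE these were PCK2, CHAC1 and SLC7A5, at 0.27, 0.28 and 0.31. INHBE itself varied more, with an RMS of 0.85 about its own mean against 0.54 for VEGFA, 0.57 for STC2 and 0.54 for GDF15, and the differences were not scaled by this. The closest to GDF15 was MMP2, a matrix metalloproteinase, at 0.18, then RGL1 at 0.20 and the protocadherin PCDH10 at 0.21. These 3 stood 0.14, 0.16 and 0.13 from siCTR in siDBC1 and 1.16, 0.96 and 1.15 in siZNF326. All 9 arrays are shared by these values, which describe likeness and were not tested.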

How the data were processed

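Expression was measured on Affymetrix whole-transcript arrays in 9 samples. The authors deposited log2 values, 1 per probe set and array, processed with RMA, a method that corrects background, normalizes arrays and summarises probes, per the submitters' processing notes, which also name build hg18. The version of RMA and any filter are not given in the sources used here. That the logarithm has base 2 was inferred from RMA and from the values, which ran from 0.333 to 13.4. Symbols came from the platform annotation, updated by gene identifier (14432 probe sets with 1 symbol, 2408 with several, 5171 with none). Several symbols were allowed for the 6 members only.

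All 22011 probe sets entered a linear model of the 3 groups in limma 3.58.1 (lmFit and eBayes, R 4.3.3), two-sided, with Benjamini-Hochberg adjustment over all probe sets and a call at an adjusted p below 0.05. Groups do not overlap when all arrays of one lie on one side of the other. Lists used the probe set with the highest mean per symbol. Named are the 6 members, up to 4 genes with the smallest p per list, the 3 genes of nearest course per member with a range above 1, the targeted genes and cell type markers. INHBC, ADM in siZNF326 and the markers named by percentile were chosen after their values were seen. Members and lists were chosen with earlier results of these data known. The fit was tested on simulated data. Alternatives were other scalings, filters, variance priors, a replicate block, fits of 2 groups and leaving out each array. The number of arrays limits the precision.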

Additional observations from a re-analysis of the deposited data

How the results depend on the processing

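All 300 alternative values of single genes were compared with the fit as reported, and 6 of them changed direction, each a difference that was not called and each when 1 array was left out. They were GDF15 in siDBC1 against siCTR, 0.11 without siCTR replicate 3, and in siZNF326 against siDBC1 STC2 at 0.099 and 0.043 without siDBC1 replicates 1 and 3 and ADM2 at 0.026, 0.026 and 0.11 without siDBC1 replicate 1, siDBC1 replicate 2 and siZNF326 replicate 1. Over the 9 omissions these differences ran from −0.16 to 0.11 for GDF15, from −0.21 to 0.099 for STC2 and from −0.097 to 0.11 for ADM2. The number of the 6 genes called in siDBC1 against siCTR, 1 as reported, was 3 with quantile normalization and 3 with centred arrays, 2 among probe sets with a mean of at least 4, and 0 with only the 2 groups compared, with an intensity trend, with robust eBayes and in each of the 9 omissions of an array (limma, 3 genes at an unadjusted p under 0.05 in each case). In the same order, these fits called 69, 46, 9 of 16758, 0, 4, 4 and 0 to 4 over all probe sets. In siZNF326 against siCTR the number of the 6 genes called, 1 as reported, was 4 with either scaling, 2 and 3 among probe sets with a mean of at least 4 and 6, 0 with only the 2 groups compared and 0 to 3 in the omissions, with 3 without siDBC1 replicate 2 (4 genes at an unadjusted p under 0.05 in limma where the count was 0). Over all probe sets these fits called 196 (quantile) and 119 (centred), 46 of 16758, 63 of 9924, 5 and 1 to 64, with 64 without siDBC1 replicate 2. In siZNF326 against siDBC1 the number of the 6 genes called was 0 in all 17 alternatives (1 or 2 at an unadjusted p under 0.05 in limma). With a replicate block the count was 0 in each of the 3 comparisons (3, 4 and 2 at an unadjusted p under 0.05). The numbers were not taken to pair the arrays, since deviations of same-numbered arrays correlated at −0.30 to 0.40, 3 of 9 above 0.1, and 4 of 9 arrays correlated best with an array of their own number. Arrays of different groups and different numbers correlated at −0.57 to 0.61, 5 of 18 above 0.1. The highest value, 0.61, was that of siDBC1 replicate 3 with siZNF326 replicate 1. Over all probe sets the calls ranged from 0 to 69 in siDBC1 against siCTR (8 as reported), from 1 to 196 in siZNF326 against siCTR (33) and from 0 to 28 in siZNF326 against siDBC1 (2). In siZNF326 against siCTR the calls were 20 higher and 13 lower as reported, 89 and 107 after quantile normalization and 57 and 62 with centred arrays, and in siZNF326 against siDBC1 1 and 1 as reported, 18 and 10 after quantile normalization and 4 and 5 with centred arrays. The cause of these changes was not tested. Some alternatives hold fewer probe sets (16758 and 9924) or fewer arrays. INHBE and FGF21 gave no value among probe sets with a mean of at least 6, and each gene had 1 probe set, so the planned choice between probe sets gave no value.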
